A study of Mus musculus with 2 samples.

Results

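Rab, Arf and Arl genes encode 3 families of small GTPases that direct membrane traffic. They were examined for Arid1b signal in chromatin of mouse dental mesenchyme cells. Members were all protein-coding genes of the RefSeq table for mm10 whose symbol is Rab, Arf or Arl followed by a number and at most 1 letter, which gave 85 of 21887 genes, namely 59 Rab, 6 Arf and 20 Arl. Their peaks were chosen by position in the deposited list, as any peak with some part within 1 kb of the low or high end of the gene, here called a boundary peak. The peak calls therefore set the counts below, which are descriptions without a test.

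The cells were primary dental mesenchyme of wild-type C57BL/6 mice, taken from the root end of first lower molars at postnatal day 3.5 to 7.5 and cultured with 10% serum. Both libraries came from such cells, 1 precipitated with an Arid1b antibody and 1 input library without antibody. The series as named concerns Arid1a, Plagl1 and Hedgehog signalling in cell cycle arrest of tooth root progenitors, and its design text names Gli1-CreER;Arid1a fl/fl mice, whereas the labels of these libraries name wild-type mice and Arid1b. No group has a second library, so nothing here has a replicate check, and a peak describes this library pair and not a level of expression.

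Arid1b belongs to the BAF form of the SWI/SNF chromatin remodellers, which use ATP to move or eject nucleosomes, commonly at promoters and enhancers. Small GTPases switch between a GDP-bound and a GTP-bound form. Exchange factors (GEFs) load GTP and GTPase-activating proteins (GAPs) speed its hydrolysis, and in the GTP-bound form the protein recruits effectors to a membrane. Rab proteins mark compartments such as the endoplasmic reticulum, Golgi, endosomes and secretory granules. Arf proteins recruit coats for vesicle budding, and Arl proteins are their relatives with roles in the Golgi, lysosome and primary cilium, the organelle through which Hedgehog signals pass.

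The list held 8318 peaks, called for the Arid1b library against input, with a median fold enrichment at the summit of 3.72. The fold sets the summit pileup against an expected level. At 23 of the 49 boundary peaks of members, the recovered expected level was the genome background of 8.68. Their folds are thus not relative to input at the site itself. The fold is the authors' linear value for each peak, and the interval beside a fold here is the exact 95% Poisson interval of the summit pileup, which covers counting error only. Fragments without molecular identifiers are not necessarily independent molecules. Total read numbers were not used here. Pileups at the members' boundary peaks had a median of 39 and lay between 30 and 72. The labelled cell type was compared with marker genes by peak position alone. Boundary peaks lay at 11 of 13 dental mesenchyme markers, with none at Prrx1 and Lhx6, and at 2 of 9 dental epithelium, 0 of 8 blood and immune, 0 of 4 endothelial and 1 of 5 neuronal markers, beside 22.2% of all protein-coding genes. The epithelial (22.2%) and neuronal (20.0%) shares were thus at or near that of all genes.

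Boundary peaks were present at 40 of the 85 members (47.1%), against 22.2% of all protein-coding genes. The Arf family had 5 of 6 (83.3%), Rab had 27 of 59 (45.8%) and Arl had 8 of 20 (40.0%). The families differ in size, and 1 gene moves the Arf share far more than the others. The same count was 62 of 149 (41.6%) for a list of regulators and effectors of these GTPases, and 25 of 63 (39.7%) for a list of other small GTPases. The members' share was thus above the background, and differences between the families and from these related lists were not tested. Promoters of members were also richer in CpG dinucleotides than those of all genes, as given below. Counting any peak that overlapped a gene or lay up to 10 kb outside raised the members to 49 of 85, against 31.7% of all genes.

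**Figure D1:**
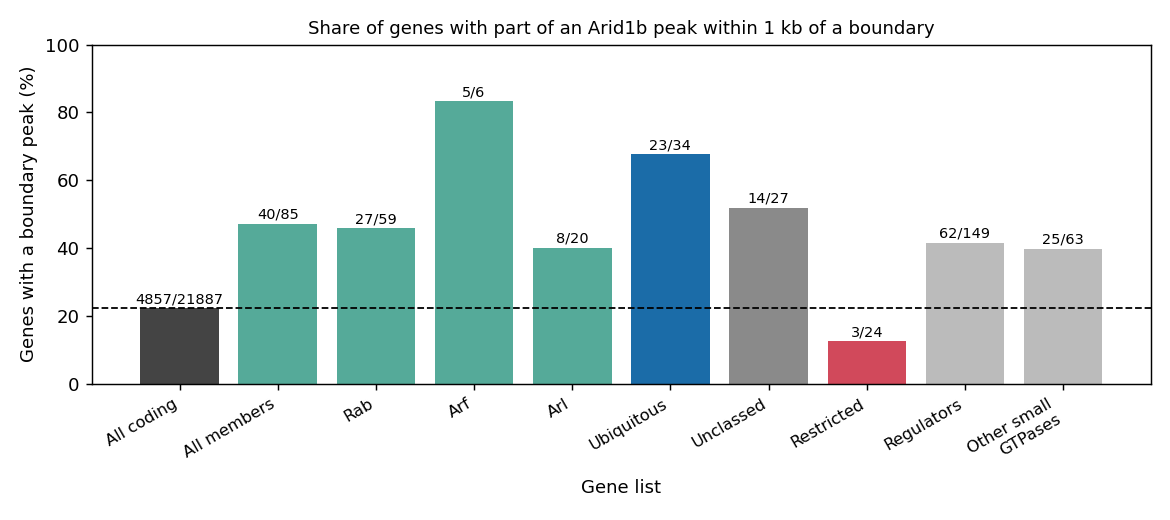
Share of genes with part of an Arid1b peak within 1 kb of a boundary (vertical axis, percent) for all protein-coding genes, the members, their 3 families, the members by breadth of expression and 2 related lists (horizontal axis), with counts over the bars. The dashed line is the share of all protein-coding genes, 22.2%, and the tissue-restricted members are the only bar of the members under it, a position that does not hold if unclassed members are counted as restricted (33.3%).

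Broadly expressed members had boundary peaks at a larger share than tissue-restricted ones, in both families that hold both classes. Members were classed from general knowledge of expression, not from these data, as ubiquitous (34), tissue-restricted (24) or unclassed (27). The lists were, however, made with earlier results of these data known, so the classing was not blind to them. Ubiquitous members had a boundary peak at 23 of 34 (67.6%), unclassed members at 14 of 27 (51.9%) and tissue-restricted members at 3 of 24 (12.5%), beside the background of 22.2%. With the unclassed members counted as restricted, that class had 17 of 51 (33.3%), above the background and still under the ubiquitous share. Within Rab the counts were 14 of 22 ubiquitous against 3 of 19 restricted, and within Arl 5 of 7 against 0 of 5. The Arf family had no restricted member. The difference was not tested, and expression of these genes in the cells was not analysed here.

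Of the 3 tissue-restricted members with a boundary peak, Rab6b, the neuronal relative of the Golgi gene Rab6a, had it near its own listed start, whereas for Rab26 and Rab37 the promoter table used below gave no start. The Rab6b peak at chr9:103111762-103112022 had a fold of 3.09 (2.18 to 4.26), and its summit lay 177 bp before the start. The strongest of the 3 was at Rab26, a gene of secretory granules at chr17:24529054-24533747, with a peak at chr17:24528334-24528704, a fold of 3.51 (2.45 to 4.89) and a -log10 q of 6.81. Its summit lay outside the gene, 471 bp from the low end, and 645 bp from a listed start of the neighbour Traf7. The peak at Rab37, a GTPase of mast cell granules, had a fold of 3.20 (2.19 to 4.53). It also lay outside the gene, 786 bp from the high end and 218 bp from the start of Slc9a3r1. Restricted members without a boundary peak were the synaptic and granule genes Rab3a, Rab3b, Rab3c and Rab3d, the granule and melanosome genes Rab27a, Rab27b and Rab38, the epithelial genes Rab17 and Rab25, and Rab9b, Rab15, Rab19, Rab33a, Rab39, Rab39b, Rab44, Arl4d, Arl9, Arl11, Arl13a and Arl14. Of all 24, 6 had a peak in the gene or up to 10 kb from it, against 31.7% of all protein-coding genes, and 18 had none.

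Promoters are shown for the members with the strongest boundary peaks of each family that the RefSeq promoter table of GRCm38.p6 (the assembly of mm10) holds. Rab6b, as the restricted member with a peak at its start, and Rab3a, a restricted member without a peak within 10 kb, were added after their values were seen. Each run is the 250 bases before the most upstream listed start, 5′ to 3′ on the gene's own strand. Capitals mark matches, on either strand, to the GC box GGGCGG and the CCAAT box CCAAT, since none of the other motifs searched occurred in these stretches.
Rab5b, chr10:128696269-128696518, minus strand: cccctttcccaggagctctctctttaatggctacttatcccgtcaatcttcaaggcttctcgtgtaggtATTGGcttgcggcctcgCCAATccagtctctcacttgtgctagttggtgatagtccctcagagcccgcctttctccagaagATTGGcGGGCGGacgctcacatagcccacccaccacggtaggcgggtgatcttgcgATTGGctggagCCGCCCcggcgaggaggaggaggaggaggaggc
Rab40c, chr17:25919715-25919964, minus strand: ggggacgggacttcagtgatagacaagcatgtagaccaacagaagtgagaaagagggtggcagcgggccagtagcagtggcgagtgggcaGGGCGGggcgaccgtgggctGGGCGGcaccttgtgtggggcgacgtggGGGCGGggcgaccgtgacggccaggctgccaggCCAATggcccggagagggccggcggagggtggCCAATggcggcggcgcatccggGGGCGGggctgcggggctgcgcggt
Arf1, chr11:59228268-59228517, minus strand: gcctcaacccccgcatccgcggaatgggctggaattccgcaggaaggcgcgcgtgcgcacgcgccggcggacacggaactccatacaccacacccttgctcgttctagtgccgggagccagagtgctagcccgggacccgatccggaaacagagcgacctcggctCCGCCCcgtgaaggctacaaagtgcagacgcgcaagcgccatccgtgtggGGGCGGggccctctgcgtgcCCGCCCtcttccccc
Arl8a, chr1:135146584-135146833, plus strand: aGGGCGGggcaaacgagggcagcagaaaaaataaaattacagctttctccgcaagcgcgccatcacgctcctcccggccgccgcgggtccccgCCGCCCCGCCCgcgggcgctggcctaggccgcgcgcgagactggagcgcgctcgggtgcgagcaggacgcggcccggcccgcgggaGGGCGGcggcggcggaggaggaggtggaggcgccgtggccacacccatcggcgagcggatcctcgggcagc
Arl5a, chr2:52424875-52425124, minus strand: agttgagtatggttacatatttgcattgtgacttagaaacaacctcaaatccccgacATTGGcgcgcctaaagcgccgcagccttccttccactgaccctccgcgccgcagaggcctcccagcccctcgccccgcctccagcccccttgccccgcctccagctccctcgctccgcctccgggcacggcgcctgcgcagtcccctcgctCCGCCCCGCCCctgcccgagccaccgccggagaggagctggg
Rab6b, chr9:103111824-103112073, plus strand: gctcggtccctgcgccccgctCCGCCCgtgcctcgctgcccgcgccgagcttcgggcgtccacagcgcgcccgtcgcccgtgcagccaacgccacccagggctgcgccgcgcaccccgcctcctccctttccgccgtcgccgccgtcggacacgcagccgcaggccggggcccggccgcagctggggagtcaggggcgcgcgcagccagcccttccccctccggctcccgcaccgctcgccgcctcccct
Rab3a, chr8:70754453-70754702, plus strand: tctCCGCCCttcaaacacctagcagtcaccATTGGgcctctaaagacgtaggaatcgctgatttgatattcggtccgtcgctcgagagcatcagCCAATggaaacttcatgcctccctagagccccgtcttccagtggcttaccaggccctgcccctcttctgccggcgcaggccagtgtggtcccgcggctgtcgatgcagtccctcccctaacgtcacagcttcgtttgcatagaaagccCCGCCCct
The Rab5b stretch holds 4 CCAAT boxes and 2 GC boxes, and the summit of its peak lies inside it, 231 bp before the start. Rab40c holds 4 GC boxes and 2 CCAAT boxes, Arf1 3 GC boxes, Arl8a 4 GC boxes, and Arl5a 2 GC boxes and 1 CCAAT box, and the summits of their strongest peaks lie beyond these stretches, inside the genes. Rab6b holds 1 GC box. Rab3a holds 2 GC boxes and 2 CCAAT boxes, so both motifs also occur at a promoter without a peak.

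The 2 strongest member peaks were at Rab5b and Rab40c. Rab5b, a GTPase of early endosomes at chr10:128677170-128696284, had a peak at chr10:128696030-128696992 with a fold of 7.54 (5.92 to 9.47) and a -log10 q of 35.5. This peak also came within 1 kb of the ends of the cell cycle kinase gene Cdk2 and of Pmel. The summit lay 215 bp from the Rab5b boundary, against 611 bp from that of Pmel and 1439 bp from that of Cdk2. Rab40c, whose product is an adaptor of a ubiquitin ligase through its SOCS box, lies at chr17:25882114-25919714. It had a peak at chr17:25919350-25920139 with 6.71 (5.20 to 8.52) and a -log10 q of 29.0. A second one on the other side of the start reached 4.34.

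Next were Rab11b of recycling endosomes at 6.09 (4.65 to 7.85), Arf6 at 5.36 (4.06 to 6.95), Rab4b of recycling endosomes at 5.16 (3.85 to 6.79) and Rab6a of the Golgi at 5.06 (3.76 to 6.68). The Rab6a peak was shared with Mrpl48, and its summit lay 375 bp from the Rab6a boundary and 351 bp from that of Mrpl48. The Rab4b peak was shared with Mia, with its summit 56 bp from the Rab4b boundary and 914 bp from that of Mia. With Rab5b and Rab40c, the 6 members with a fold of at least 5 are 7.06% of the 85, against 3.29% of all protein-coding genes with such a boundary peak. Taken per boundary peak, the shares were near each other, with 12.2% of the members' 49 and 11.7% of all at such a fold. The same 6 members are those whose interval lay above the median fold of all peaks. Among the 49 boundary peaks of members, 42 had an interval that included that median, and 1, at Rab12, lay below it. Pairs of members were not compared by a test. The median of the strongest boundary peak per gene was 3.92 for members and 3.92 for all genes with such a peak.

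**Figure D2:**
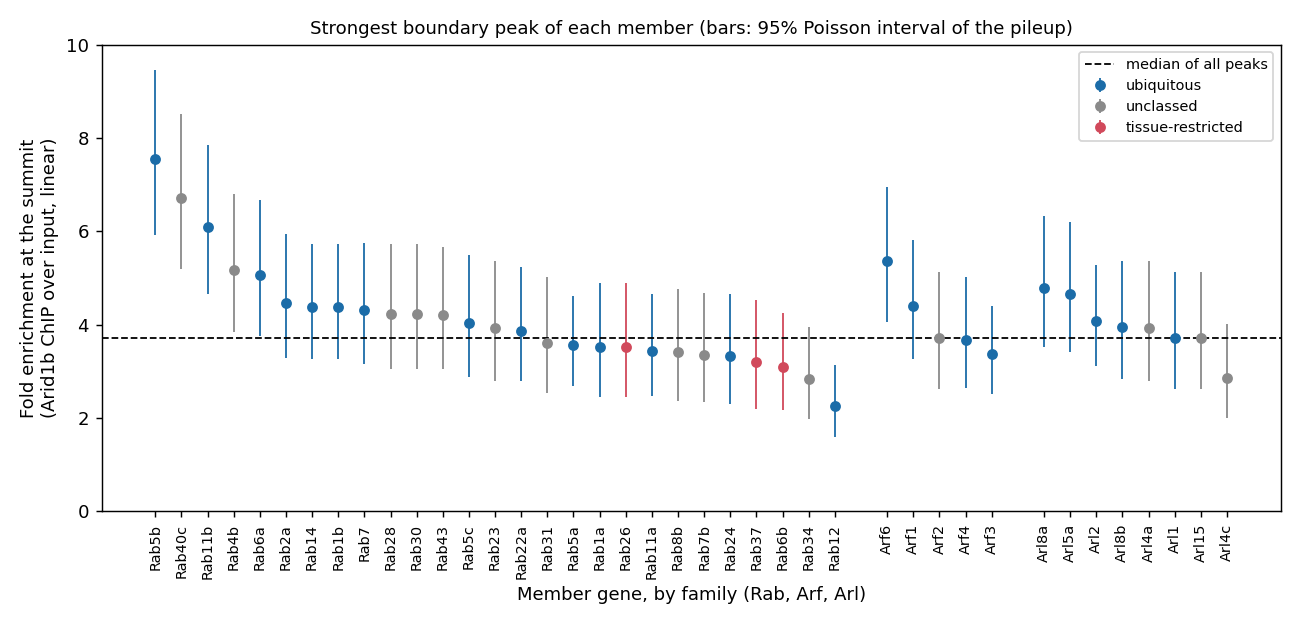
Fold enrichment at the summit (vertical axis, linear) of the strongest boundary peak of each of the 40 members that have one (horizontal axis, by family and then by fold), coloured by breadth of expression. Bars are 95% Poisson intervals of the summit pileup, and the dashed line is the median of all peaks, 3.72, which most bars cross.

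The Rab genes are described here in groups by role that were formed after their values were seen. Those of early and recycling endosomes had boundary peaks at 9 of 15 (60.0%, against 22.2% of all protein-coding genes). All 3 Rab5 genes, which control fusion of early endosomes, were among them, with Rab5c at 4.03 and Rab5a at 3.55 after Rab5b. The intervals of Rab5c (2.88 to 5.49) and Rab5a (2.69 to 4.62) overlapped each other but not that of Rab5b. The recycling genes were Rab11b, Rab4b and Rab11a (3.43). Rab14, which acts between the Golgi and endosomes, had 4.37, and the Rab5 relatives Rab22a and Rab31 had 3.87 and 3.61. None was listed at Rab4a, Rab15, Rab17, Rab25, Rab35 or Rab21. Rab21 had peaks of 3.82 and 3.75 inside the gene, with summits 200 bp before and 692 bp after a listed start that lies inside the outer boundary. It was the only member gained when any listed start counted, which gave 34 of 70 members in the promoter table against 23.9% of all genes there.

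Rab genes of the endoplasmic reticulum and Golgi had boundary peaks at 7 of 11 (63.6%, against 22.2% of all genes). Rab1a and Rab1b, which act in transport from the endoplasmic reticulum to the Golgi, both had 2. At Rab1a they had folds of 3.51 and 3.26 and flanked the start, with summits 472 bp before and 349 bp after it. At Rab1b the peak near the start had 3.84. The stronger one of 4.37 lay 710 bp beyond the far end of the gene, with its summit 158 bp from the start of Cnih2. Rab2a, also of this early secretory route, had peaks of 4.47 and 3.20, while Rab2b had none at a boundary. The remaining members of the group with a boundary peak were Rab6a, Rab6b, Rab30 (4.23) and Rab43 (4.20), all linked to the Golgi. Rab18, Rab33a and Rab33b had none within 10 kb.

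Of 9 Rab genes of late endosomes, lysosomes and autophagy, 4 had a boundary peak (44.4%, against 22.2% of all genes). Rab7, the main GTPase of late endosomes and lysosomes, had 4.31 (3.16 to 5.75), with the summit 19 bp from a listed start. Rab7b had 3.35, Rab24 of autophagy 3.33 and Rab12 2.26 (1.59 to 3.13), the lowest of the members. The Rab24 peak also lay at the start of Prelid1, 131 bp from the summit. Rab9, Rab9b, Rab29, Rab32 and Rab38 had none. The 9 Rab genes of regulated secretion had 2, at Rab26 and Rab37 as above, a share of 22.2% that equals that of all genes, and neither summit lay inside the gene. Of the 6 Rab genes not placed in a group by role, Rab19, Rab20, Rab36, Rab39, Rab39b and Rab42, none had one. Placing any of them in a group would lower that group's share. The shares by role thus depend on a grouping made with the values known. Rab40b, the relative of Rab40c, had no peak within 10 kb.

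Rab genes of surface delivery, junctions and the cilium had boundary peaks at 4 of 7 (57.1%, against 22.2% of all genes). Rab23, a negative regulator of Hedgehog signalling, had 3.92 (2.79 to 5.37), with its summit 364 bp after the first and 159 bp before the second of its 2 listed starts. Rab28 had peaks of 4.23 and 3.61 on either side of its start, 137 bp before and 216 bp after it. Rab34, which acts in the building of cilia and in Hedgehog signalling, had 2.84 (1.98 to 3.95), and a stronger peak of 4.34 lay at the neighbouring ribosomal protein gene Rpl23a, 5039 bp from the Rab34 start. Rab8b had 3.41. Rab8a, which acts in membrane delivery to the cilium, Rab10 and the tight junction gene Rab13 had none within 10 kb.

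Over all 3 families, 6 of the 10 members of a list of cilium and Hedgehog GTPases had a boundary peak (60.0%, against 47.1% of all members and 22.2% of all genes), at Rab11a, Rab23, Rab28, Rab34, Arf4 and Arl2. The 4 without one were Rab8a, Arl3, Arl6 and Arl13b. Arl13b and Arl3 form a GEF and GTPase pair in the cilium, and Arl6 recruits the BBSome, a coat for ciliary membrane proteins. The nearest peak to Arl13b had its summit 7355 bp before its start and 88 bp from the boundary of Pros1. Arl3 had a peak of 2.66 beyond its far end, 7516 bp away, and Arl6 had none within 10 kb.

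Among the Arf genes, which recruit coat proteins to the Golgi and the plasma membrane, Arf5 alone lacked a boundary peak. Arf6, the member of the plasma membrane and endosomes at chr12:69372150-69375980, had peaks at chr12:69372193-69373369, 5.36 with a -log10 q of 19.8, and at chr12:69371653-69371957, 4.24 (3.08 to 5.69). The first was the widest boundary peak of the members at 1177 bp. Arf1 of the Golgi, at chr11:59211412-59228267, had 4.40 (3.26 to 5.82) at chr11:59227497-59228224 with a -log10 q of 13.4. Arf2 had 3.72, Arf4 3.68 and Arf3 3.36, with intervals that overlapped those of Arf1 and of each other. The peak nearest to Arf5 had a fold of 3.72, with its summit 2164 bp before the start and 284 bp from the boundary of Gcc1.

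Among the Arl genes the strongest peaks were at Arl8a and Arl5a. Arl8a and Arl8b, which link lysosomes to the motors that move them, had 4.78 (3.52 to 6.34) and 3.94 (2.83 to 5.35). The Arl8a peak lay at chr1:135146812-135147456, across the low end of the gene at chr1:135146834-135156268, with a -log10 q of 14.5. Arl5a, a GTPase of the Golgi at chr2:52397949-52424874, was the only member with 3 boundary peaks. They had folds of 4.65 (3.41 to 6.20, at chr2:52424358-52424857, -log10 q 13.4), 3.51 and 3.30, with summits 146 and 965 bp after and 413 bp before the start. Its relatives Arl5b and Arl5c had none.

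The other Arl genes with a boundary peak were Arl2, which acts in the assembly of tubulin, at 4.08, Arl4a at 3.92, Arl1 of the Golgi at 3.72, Arl15 at 3.72 and Arl4c at 2.87 (1.99 to 4.01). Their intervals overlapped, and none lay above the median of all peaks. The summit at Arl1 also lay 149 bp from the start of the gene model Gm4925. Besides the restricted and ciliary Arl genes named above, Arl10 and Arl16 had no boundary peak.

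Some close relatives differed in their peak calls. Of 18 groups of members that share a number, 6 had a boundary peak at every gene, 6 at some and 6 at none. Peaks at every gene were found for Rab1, Rab5, Rab6, Rab7, Rab11 and Arl8. Rab2, Rab4, Rab8, Rab40, Arl4 and Arl5 were mixed. Rab3, Rab9, Rab27, Rab33, Rab39 and Arl13 had none. A missing boundary peak can also be a weaker signal below the authors' calling threshold, so these are differences in peak calls and not measured differences in binding.

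Among members with a known strand, nearly all boundary peaks lay at the start and not at the far end of the gene. In the 70 members of the promoter table, which gives strand, 39 of 40 pairs of gene and boundary peak (97.5%) were at the start end, against 91.2% of 5058 such pairs over all genes with strand. The exception was the Rab1b peak near Cnih2. Counting the start end alone gave 33 of 70 members, the same 47.1%, against 21.6% of all genes with strand. Members absent from that table were Arf6, Arl5c, Arl8b, Arl13a, Rab2a, Rab4a, Rab7b, Rab18, Rab26, Rab27b, Rab30, Rab36, Rab37, Rab38 and Rab44.

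Summits were usually close to the start, which the rule largely sets, since part of every boundary peak lies within 1 kb of a gene end. For the strongest boundary peak, the median position was 105 bp into the gene (quartiles -137 and 300 bp, n = 33 members), against 183 bp (-126 and 330 bp, n = 3949 genes) over all genes. It lay downstream of the nearest listed start in 20 of 33 members (60.6%) and in 70.1% of all genes. Within 500 bp of the start were 31 of the 33 (93.9%), all but Rab14 (657 bp) and Rab1b, and 77.3% of all genes. Far-end peaks count in both shares. They were a larger part over all genes, where 91.2% of pairs were at the start end, against 97.5% for members. Peaks on both sides of the start were listed for Rab1a, Rab28, Rab40c and Arl5a.

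**Figure D3:**
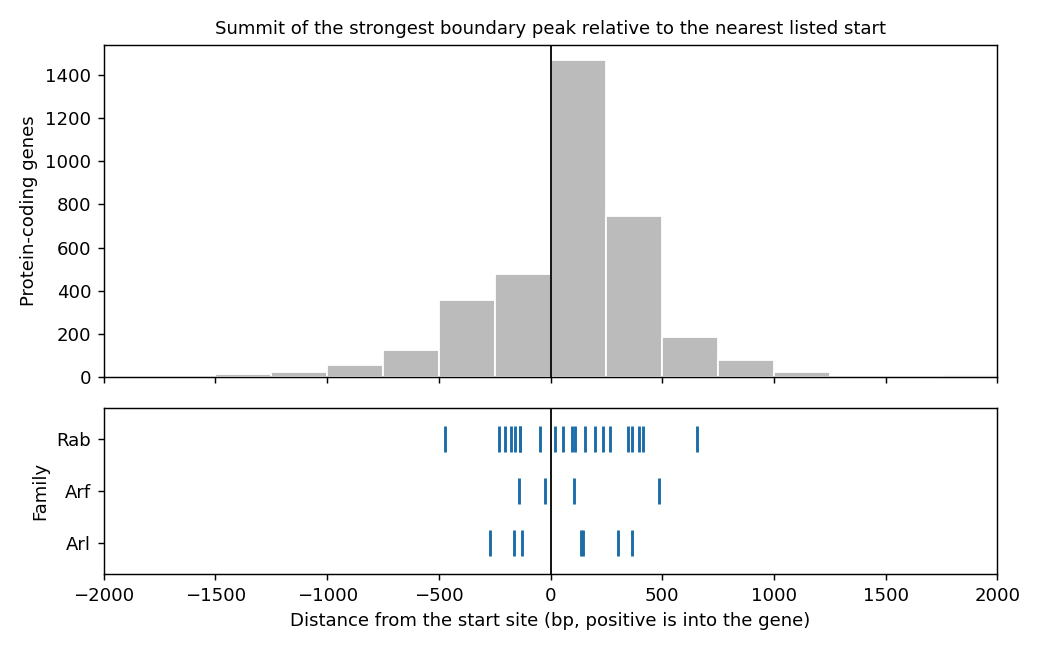
Position of the summit of the strongest boundary peak relative to the nearest listed start (horizontal axis, bp, positive into the gene), as numbers of protein-coding genes in 250 bp bins (top) and as 1 mark per member by family (bottom). Members lie on both sides of the start, and Rab1b, at 8633 bp, is outside the plotted range.

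Some peaks were shared with neighbours. Of the 49 boundary peaks of members, 10 were also within 1 kb of another protein-coding gene, at 9 members: Arf3, Arl1, Rab1b, Rab4b, Rab5b, Rab6a, Rab24, Rab26 and Rab37. With peaks at a single protein-coding gene alone, 31 of 85 members had one (36.5%), against 15.9% of all genes. Of those with any boundary peak, that left 31 of 40 members and 3475 of 4857 genes, so sharing was not particular to members. Ubiquitous members then had 17 of 34, and restricted members 1 of 24, Rab6b. Peaks near members without a boundary peak were mostly at neighbours too. Of 9 such members with a peak up to 10 kb from the gene, 7 had it at the boundary of a neighbour: Arf5, Arl10, Arl13b, Rab2b, Rab3d, Rab19 and Rab25. The strongest of these, 5.27 (3.94 to 6.91), lay 4035 bp from Rab2b and had its summit 484 bp from Chd8. Over the whole list, 5275 of 8318 peaks were boundary peaks of some protein-coding gene, so such a position is common to most peaks.

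By the closest peak of each gene, which sets the gene counts, few members lay near the 1 kb limit of the rule. Nearest inside was Rab37, whose peak lay 699 bp from the gene, and before it Rab12 at 430 bp. Nearest outside were Rab21 at 1510 bp and Arf5 at 2069 bp. Further peaks of members with a closer one lay nearer the limit. Inside it these were at Rab43 (915 bp), Arl5a (822 bp) and Rab1b (710 bp), and outside it the nearest was at Rab26 (1097 bp).

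Promoters of members were rich in CpG dinucleotides, and the ratio of observed to expected CpG differed between the classes. Over the 300 bp from 250 before to 50 after the most upstream start, the median ratio was 0.795 in 70 members and 0.577 in 17492 protein-coding genes. It was 0.907 in 29 ubiquitous and 0.574 in 18 restricted members. Over all genes, 39.4% of those with a ratio of at least 0.6 and 6.8% of those under it had a boundary peak. CpG content thus moved with the peak calls over all genes, and its part in the difference between ubiquitous and restricted members was not tested.

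Above the ratio of 0.6, a boundary peak was present at 31 of 54 members (57.4%), against the 39.4% of all such genes. Among these members it was present at 19 of 27 ubiquitous and 1 of 8 restricted ones. The restricted members above it were Rab3a (0.688), Rab3d (0.774), Rab15 (0.882), Rab27a (0.643), Rab39 (0.809), Rab39b (1.06), Arl4d (0.924) and Rab6b (1.02), and Rab6b alone had a peak. The 8 ubiquitous members above it without a peak were Arf5, Arl3, Arl5b, Rab8a, Rab10, Rab13, Rab21 and Rab35. Below 0.6, 2 of 16 members had a peak, Rab5b at 0.596 and Rab34 at 0.518, beside 6.8% of all genes. Rab5b carries the highest fold of the members. Restricted members below 0.6 had 0 of 10. Only 75.0% of the restricted members have a promoter in the table, against 85.3% of the ubiquitous ones, so the comparison by CpG ratio is incomplete for them.

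**Figure D4:**
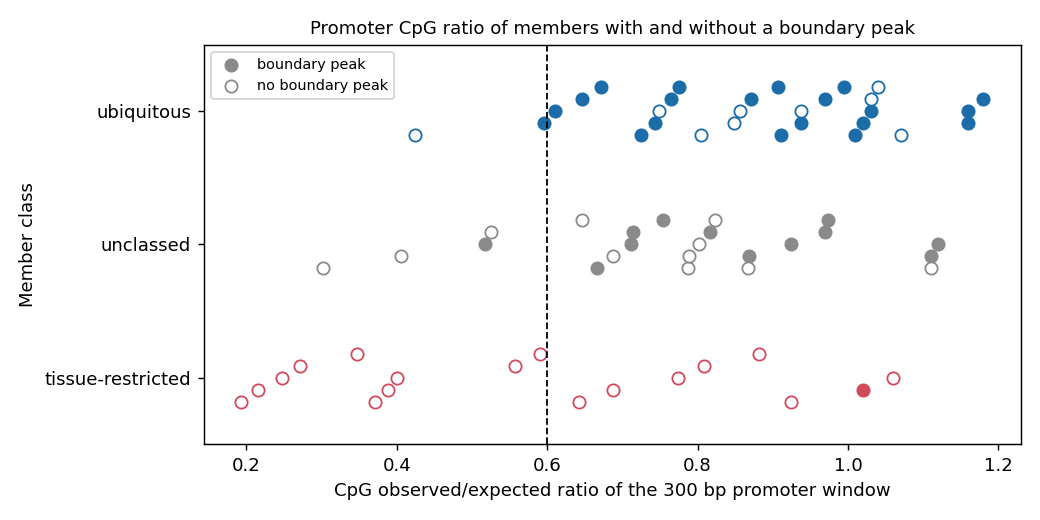
Ratio of observed to expected CpG in the 300 bp promoter window (horizontal axis) of the 70 members in the promoter table, in rows by breadth of expression, with filled points for members with a boundary peak. Vertical scatter within a row only separates points. To the right of the dashed line at 0.6, most ubiquitous members are filled, and Rab6b is the only filled restricted member.

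Sequence motifs were counted in the same 300 bp on both strands. The GC box GGGCGG occurred in 52 of 70 members (74.3%), against 46.3% of all promoters and 72.3% of promoters of genes with a boundary peak. It was in 29 of 33 members with a boundary peak and 23 of 37 without. The CCAAT box CCAAT occurred in 20 of 33 members with a peak (60.6%) and 14 of 37 without (37.8%), against 40.6% of all promoters of genes with a peak and 39.2% of all promoters. The E-box CACGTG was in 9 of 70 members (12.9% against 7.91% of all). Its extended form TCACGTGA, which contains the E-box and is known from lysosomal genes, was in 4 members, Rab5a, Rab21, Rab24 and Arl2 (5.71% against 1.25%).

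The cyclic AMP response element TGACGTCA was in Arl4d, Arl5b, Rab5a and Rab25 (5.71% against 2.33%). The AP-1 motif TGACTCA was in Rab34 and Rab39b (2.86% against 4.56%), the ETS motif CCGGAAGT in Arl5b, Rab11a and Rab24 (4.29% against 5.28%), the NRF1 motif GCGCATGC in Rab1a and Rab23 (2.86% against 3.61%) and the YY1 motif AAGATGGCG in Rab13, Rab22a and Rab28 (4.29% against 1.92%). These last counts of 2 to 4 genes are small, and a match is a stretch of letters and not evidence of a bound factor.

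The 5 members on chromosome X, Arl13a, Rab9, Rab9b, Rab33a and Rab39b, had no peak within 10 kb, against 31.7% of all protein-coding genes with one. A count over 5 genes is too small to set apart from that share, and the share over all genes of chromosome X was not computed. All but Rab9 are in the restricted class, so chromosome and class cannot be told apart for them.

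Among genes that act on these GTPases, the share with a boundary peak ran from 29.2% to 64.3% by functional group, and differences were not tested. Partners of Arl proteins had 9 of 14 (64.3%), Rab GEFs 16 of 36 (44.4%), Arf GAPs 9 of 21 (42.9%), genes of Rab escort, prenylation and GDI 3 of 7 (42.9%), Arf GEFs 6 of 15 (40.0%), Rab GAPs 12 of 32 (37.5%) and Rab effectors 7 of 24 (29.2%), beside the 22.2%. The strongest were at Git2, an Arf GAP, at 8.57 (6.98 to 10.4), Evi5l, a Rab GAP, at 7.85 (6.20 to 9.81), Arl6ip6 at 7.74, Mon1b of the Rab7 GEF at 6.92 and Arfip2 at 5.58. Among other small GTPases, Ras family genes had 9 of 26, and the strongest peak was at Nras (6.30). Rragc, a GTPase of nutrient sensing at the lysosome, had 5.22 (3.93 to 6.82).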

How the data were processed

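The data are 1 Arid1b ChIP-seq library and 1 input library of mouse dental mesenchyme cells. Per the submitters' processing notes, the tools were MACS2 2.1.1, Bowtie2 2.2.5, FastQC 0.11.8 and Picard, with build mm10. Roles and parameters were not stated there. The deposited narrow peak list gives, for each of 8318 peaks, the authors' fold (a linear ratio), -log10 p-value, -log10 q-value, a score, not used here, and the summit offset.

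Summit pileups in whole fragments were solved from the deposited fold and p-value, on the assumption that MACS2 adds 1 to pileup and expected level. They solved both within 0.001 in 100% of peaks, and gave the exact Poisson 95% intervals. The calculation was checked on simulated data with known pileups. Gene ends came from the RefSeq table of GRCm38.p6 without mitochondrial genes, and starts, strand and promoters from its promoter table. Python 3.11.15, pandas 2.3.3 and scipy 1.17.1 were used. Alternatives covered the window, q, fold, summit, start end, listed starts, shared peaks and class lists.

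Members and lists were chosen with earlier results of these data known, and the Rab groups by role after values were seen. Every member is named. Full positions are given for the 2 strongest per family and the strongest restricted member, and up to 5 genes per related list, of which a few are not reported here. Planned protein comparisons were not run, since no protein sequences were used here. Coordinates are 1-based.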

Additional observations from a re-analysis of the deposited data

How the results depend on the processing

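Counts of members in the 3 families and in the ubiquitous class stayed within 1.5 times of the reported ones with windows of 500 bp and 5 kb, a -log10 q of at least 5, summits within 1 kb, the start end alone, any listed start, and peaks at a single protein-coding gene. The same held for regulators and other small GTPases, and the median fold of members ranged from 3.86 to 3.94. Over all protein-coding genes, the share with a boundary peak under these settings ran from 15.9% to 27.0%. Listed starts and peaks at a single protein-coding gene were alternatives chosen after seeing the data. Requiring a fold of at least 5 lowered every count, to 6 members, 5 Rab, 1 Arf, 0 Arl, 4 ubiquitous, 0 tissue-restricted, 8 regulators and 6 other small GTPases. Over all protein-coding genes that share was 3.29%, which is near the 0 of 20 Arl and 0 of 24 restricted members. The count of 3 of 24 tissue-restricted members became 5 with a window of 5 kb (20.8%, against 27.0% of all genes). With peaks at a single protein-coding gene it became 1 (4.17% against 15.9%). It was 1 of 18 with the start end alone (5.56% against 21.6%) and 1 of 18 with any listed start (5.56% against 23.9%). These settings also leave out the 6 restricted members absent from the promoter table, Rab26 and Rab37 among them, and no member in the table lost its peak with the start end alone. With the unclassed members added, it was 17 of 51 (33.3%) for the restricted class and 37 of 61 (60.7%) for the ubiquitous class, so the restricted class moves from below to above the 22.2% of all genes where unclassed members count as restricted. A fold limit of 5 gives no separate median. No paired analysis was possible because there is 1 library per group. The pileups limit the precision of each fold, and a gene without a peak may hold signal below the calling threshold.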
